A study of Mus musculus with 12 samples.

Results

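The comparison described here set 3 arrays from diabetic mice given mcIRBP against 3 arrays from diabetic mock mice. All 6 samples were labelled male BALB/c, diabetic and muscle, and the treated mice were labelled with a dose of 2.5 nmol. mcIRBP is a protein of bitter melon (Momordica charantia) that binds the insulin receptor. These 6 arrays were 6 of the 12 in the series, the others being mock and mcIRBP arrays of female BALB/c mice without diabetes. The labels give no age, no route, no interval between dose and sampling, and no account of how diabetes arose, and they do not say whether 3 arrays came from 3 mice. The p-values therefore measure the spread between arrays of a group, which may be technical. That spread was pooled over all 12 arrays, the normal ones included. Array weights, which are low for arrays far from their group, were 0.248 to 0.563 for normal and 0.547 to 5.79 for diabetic arrays. A gene can thus miss the threshold although its diabetic groups lie apart. All 29922 probes were tested, and the 21020 with a gene symbol in the platform annotation are described. Where a gene had several probes, its list value came from the probe with the highest mean over the 12 arrays, which gave 16637 genes.

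A gene is said to have risen or fallen on the mcIRBP arrays where limma's p-value, adjusted over all probes by the Benjamini-Hochberg method, was under 0.05. Levels are log2 normalised intensities, and a log2 fold change is the mcIRBP mean minus the mock mean, with its standard error (SE). A probe counted as above the floor of an array where its raw intensity exceeded the mode of that array by 5 SD of the values mirrored below the mode. Where no array of a group was above the floor, the fold is a lower bound against the threshold and is written "at least".

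The epididymis is the duct in which sperm mature after leaving the testis. Its epithelium secretes beta-defensins, small lipid carriers of the lipocalin family, protease inhibitors and antioxidant enzymes into the duct, largely under the control of androgens. The fat depot beside it is a common source of mouse white adipose tissue. White fat cells store triglyceride in lipid droplets, release fatty acids through lipases, and secrete hormones such as adiponectin. Insulin favours storage in these cells and restrains lipolysis.

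The 6 arrays carried little signal of skeletal muscle genes. Ckm, the creatine kinase of muscle, was at 5.82, 5.84 and 5.83 on the mock arrays and at 5.78, 5.84 and 5.86 on the mcIRBP arrays, below the floor threshold on all 6. Myh4, the fast myosin heavy chain, was below it on all 6 as well. Of 39 genes of the contractile apparatus 21 were below the threshold on all 6 arrays, as were 12 of 17 genes of muscle calcium and energy handling and 15 of 17 myogenic regulators. Of the 39, 10 were above it on all 3 mock arrays and 5 on all 3 mcIRBP arrays. In that list 3 rose (7.69%) and 1 fell (2.56%), against 5.19% and 4.18% of all genes. In the calcium and energy list 1 rose and 0 fell. Of the rises in these lists 0 held in every alternative that tested them. The whole set of muscle genes held 0.039% to 0.050% of the raw intensity in excess of each array's mode (its above-floor intensity) on the mock arrays and 0.053% to 0.085% on the mcIRBP arrays. The tissue is therefore called by its label only.

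The mock arrays had 9986 to 12451 probes above the floor, and the mcIRBP arrays 7855, 7749 and 4302. mcIRBP array 3 was the dimmest and stood apart from the others. Its Pearson r with mcIRBP arrays 1 and 2, across probes, was 0.931 and 0.939, against 0.981 between those arrays and 0.982 to 0.989 among the mock arrays. Several of the genes below were lower on that array than on the other mcIRBP arrays.

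In all, 2009 of 29922 probes were called (6.71%), of which 1104 were higher (3.69%) and 905 lower (3.02%) on the mcIRBP arrays. Among probes with a symbol, 928 were higher (4.41%) and 778 lower (3.7%), 8.12% together, and among genes 9.38% were called. Of all genes 5.19% rose and 4.18% fell. Of the 9708 genes above the floor on any of the 6 arrays, 8.61% rose and 7.10% fell. The counts of the lists below are to be read beside both pairs of shares. Leaving out 1 diabetic array at a time left 1276 to 1636 calls. The counts were 1321, 1276 and 1292 without mock arrays 1, 2 and 3, each more than 1.5 times below the full count. The split depended on the scaling, with 55.0% of calls higher as given here, 19.3% under median scaling and 40.8% when the 6 diabetic arrays were normalised and fitted alone or when the deposited normalised intensities were used. The large changes were asymmetric, since 24 called probes were more than 16-fold higher and 1, for Car3, was more than 16-fold lower. The plot of change against level shows the genes of epididymis lists along the upper edge and those of adipose lists along the lower edge.

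**Figure D1:**
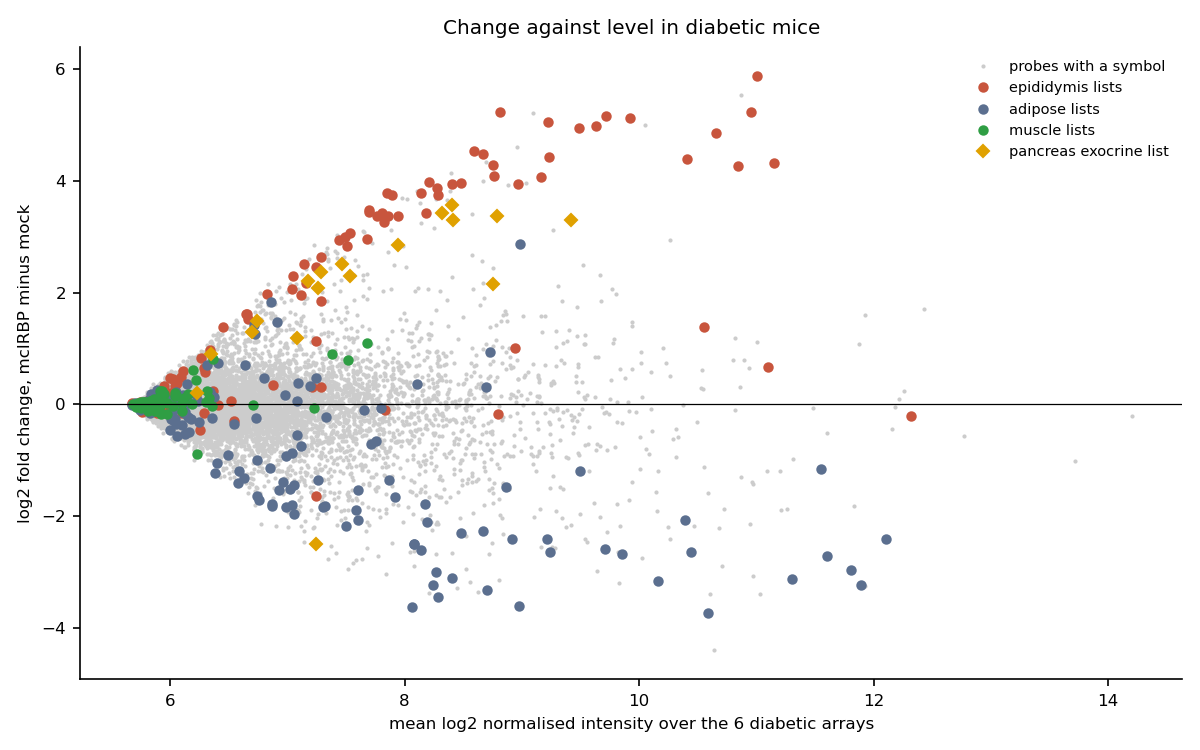
Log2 fold change (mcIRBP minus mock, diabetic mice) against the mean log2 normalised intensity of the 6 arrays, 1 point per probe with a symbol, with the members of epididymis, adipose, muscle and exocrine pancreas lists in colour at 1 probe per gene. Coloured epididymis points reach 5.88 (Defb20) and coloured adipose points -3.72 (Cidec), the grey point at -4.40 is the other probe of Car3, and most muscle genes lie near 0 at the left, where intensities are near the floor.

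Genes of the epididymal secretome were among the largest rises. Beta-defensins are small cationic antimicrobial peptides, many of which coat sperm in the epididymis. Of 27 measured, 16 rose and 0 fell, against 5.19% of all genes that rose and 4.18% that fell, and the median change of the list was 1.39 (log2) against 0.01 over all genes. Of these 16 calls 15 held in every alternative that tested them, which was all 17 for 14 of them and 16 for Defb19, whose probe was too dim for the filter on dim probes. Defb20 had raw intensities of 417, 724 and 424 on the mock arrays and of 25018, 21591 and 11655 on the mcIRBP arrays. After normalisation these were 8.09, 7.92 and 8.18 against 14.01, 13.91 and 13.91. The groups lay far apart, at 8.06 ± 0.13 and 13.94 ± 0.06 (SD, n = 3 each), and the log2 fold change was 5.88 (SE 0.10, adjusted p = 1.83e-10), or 58.9-fold.

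Defb12 stood at 7.16, 7.13 and 7.14 on the mock arrays and at 12.06, 12.06 and 12.24 on the mcIRBP arrays. Spag11, a sperm-binding member of the same family, stood at 7.34, 7.38 and 7.35 against 12.74, 12.29 and 12.41. Both were already above the floor on every mock array, so these folds are measured on both sides, 31.4-fold for Defb12 and 34.9-fold for Spag11. Defb15 and Defb37 were below the floor on all mock arrays and rose at least 7.76-fold and at least 5.15-fold. Defb37, Defb40 and Defb30 were lower on mcIRBP array 3 than on the other mcIRBP arrays, with 7.46 against 9.13 and 9.23 for Defb40. Defb30, at 8.85, 8.97 and 6.78 on the mcIRBP arrays, lost its call when any single diabetic array other than mcIRBP array 3 was left out and when the 6 diabetic arrays were fitted alone. Its log2 fold change of 2.31 ranged from 1.77 to 3.26 over the alternatives. Without mcIRBP array 3 the list had 18 rises. Defb1, which many epithelia make, was below the floor on all 6 arrays, and 7 of the 27 genes were.

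Lipocalins are barrel-shaped carriers of small lipids, and mice hold a cluster of epididymal lipocalin genes on chromosome 2. Of 11 measured 8 rose and 0 fell, and the median change of the list was 3.94 (log2). Lcn8 was at 8.30, 8.33 and 8.38 on the mock arrays and at 13.55, 13.45 and 13.69 on the mcIRBP arrays. Lcn5, which binds retinoic acid, was at 8.36, 8.15 and 8.17 against 13.02, 13.22 and 13.02. The groups were well separated for both, with log2 fold changes of 5.23 (SE 0.16, adjusted p = 1.59e-08) for Lcn8 and 4.86 (SE 0.08, adjusted p = 1.34e-10) for Lcn5. Lcn9 and Lcn6 were again lower on mcIRBP array 3, with 10.07 against 12.01 and 12.24 for Lcn9, but stayed above every mock array. Ptgds, the lipocalin-type prostaglandin D synthase, rose by 4.29 on the log2 scale. Lcn2, the inducible lipocalin of neutrophils and stressed epithelia, was above the floor on all 6 arrays and was not called (10.58, 11.04 and 10.68 against 11.48, 11.52 and 11.28, adjusted p = 0.542).

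The promoters of the most strongly raised genes are shown because androgen control of epididymal genes is textbook knowledge. Of the 30 probes with the largest rise, 22 matched a RefSeq promoter (build GRCm38.p6), and in the 250 bases before the transcript start of that promoter 7 of them (31.8%) held AGAACA, the core hexamer that the androgen receptor reads, on either strand, against 16.2% of all 27025 promoters. The hexamer was in 1 of 17 promoters (5.88%) matched to the 30 probes with the largest fall. Each sequence is 5′ to 3′ on the strand of the gene, with the hexamer, or its reverse complement TGTTCT, in capitals, and the site nearest the start where there were several.
Cstdc2, chr2:148851102-148851141, minus strand: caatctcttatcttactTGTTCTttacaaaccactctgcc
Ces5a, chr8:93535877-93535916, minus strand: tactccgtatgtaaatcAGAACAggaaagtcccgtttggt
Lcn9, chr2:25823091-25823130, plus strand: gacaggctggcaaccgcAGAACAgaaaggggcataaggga
Ceacam10, chr7:24777091-24777130, plus strand: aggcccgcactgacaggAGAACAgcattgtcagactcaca
Pate6, chr9:35790113-35790149, minus strand: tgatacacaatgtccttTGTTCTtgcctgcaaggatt
Lcn12, chr2:25494092-25494131, minus strand: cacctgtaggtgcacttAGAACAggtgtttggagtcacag
Lcn10, chr2:25682546-25682585, plus strand: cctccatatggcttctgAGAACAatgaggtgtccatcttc
The hexamers began 190 bases before that start in Cstdc2, 59 in Ces5a, 45 in Lcn9, 59 in Ceacam10, 20 in Pate6, 203 in Lcn12 and 163 in Lcn10. For Cstdc2, Ces5a, Lcn9 and Lcn12 that start lies inside the outermost RefSeq span of the gene, and the Lcn9 stretch lies within that span. The full palindromic site, the hexamer followed after a short gap by its reverse complement, was in 0 promoters of the 30 largest rises. It was in 1 of all 27025 promoters, so it is too rare to tell the sets apart. These are matches of letters in windows, which were not tested as sites. Also searched in the 22 promoters were TATAAA, found in 1 (4.55%, against 8.12% of all), and AGGTCA, a nuclear receptor hexamer, found in 1 (4.55%, against 13.8%). The shares of promoters with any of these motifs were not compared by a test, and a part of androgens in the rises was not tested.

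Protease inhibitors protect sperm and the duct from proteolysis. Of 22 measured 12 rose and 1 fell, and the median change was 1.74 (log2). Spint4, a Kunitz-type inhibitor, was at 6.96, 7.04 and 7.06 on the mock arrays and at 11.91, 11.82 and 12.15 on the mcIRBP arrays, a rise of 4.94 (SE 0.08, adjusted p = 1.83e-10). Spink2, which restrains acrosin in sperm, rose by 4.53, Eppin (listed as Spinlw1), a sperm-surface inhibitor, by 4.48, and Spink8 by 4.38. Spink8 was at 13.07, 13.29 and 11.45 on the mcIRBP arrays and so varied more than the others. The member that fell was Wfdc21 (listed as 1100001G20Rik), with a log2 fold change of -1.64. Among the cystatins, which inhibit cysteine proteases, Cst12 rose from 6.59, 6.71 and 6.80 to 11.82, 11.53 and 11.91, and Cst11 by 3.36. Cst3, the cystatin that most tissues secrete, was at 12.46, 12.53 and 12.29 against 12.12, 11.99 and 12.53, overlapped between the groups and was not called (log2 fold change -0.21, adjusted p = 0.976). These were the 2 of 8 cystatins called.

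The epididymal enzymes and binding proteins gave 20 rises and 0 falls among 26 genes, and a median change of 2.89 (log2). Without mcIRBP array 3 the rises numbered 23. Rnase9, a ribonuclease-like protein of the epididymis, was at 7.23, 7.19 and 7.01 on the mock arrays and at 12.41, 12.15 and 12.32 on the mcIRBP arrays. Gpx5, the secreted glutathione peroxidase that guards sperm lipids, was at 8.73, 9.18 and 9.05 against 13.22, 13.62 and 13.07. The groups did not overlap for either, and the log2 fold changes were 5.15 (SE 0.09, adjusted p = 2.89e-10) for Rnase9 and 4.32 (SE 0.15, adjusted p = 4.65e-08) for Gpx5.

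Ces5a (listed as Ces7), a carboxylesterase of the epididymis, rose by 5.23, and Cd52, a glycoprotein transferred to sperm, by 4.08. Adam7 and Adam28, membrane metalloprotease family members, rose by 4.07 and 3.98. Crisp1, a cysteine-rich protein that binds sperm, varied widely within the mcIRBP group. It was at 6.02, 6.50 and 6.07 on the mock arrays and at 10.40, 10.21 and 7.77 on the mcIRBP arrays (log2 fold change 3.26, SE 0.55, adjusted p = 0.00462). Npc2, the cholesterol-binding protein of epididymal fluid, was at 9.81, 10.04 and 9.72 against 11.64, 11.87 and 10.23. It did not pass the test (adjusted p = 0.171), although no mcIRBP array was as low as a mock array.

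Clear cells acidify the epididymal fluid with proton pumps. Of 15 genes of this function 2 rose (13.3%, against 5.19% of all genes) and 0 fell, with 1 to 3 rises when any single diabetic array was left out. They held 0.0569% to 0.0585% of above-floor intensity on the mock arrays and 0.0523% to 0.0642% on the mcIRBP arrays, so that the groups overlapped. Together the 109 genes of these epididymis lists, clear cells included, held 0.847%, 0.893% and 0.786% of the above-floor raw intensity on the mock arrays and 10.6%, 10.4% and 10.1% on the mcIRBP arrays. On the dim mcIRBP array 3 the share was close to that of the other mcIRBP arrays. The plot of levels by array sets these genes beside those of fat and muscle described below.

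**Figure D2:**
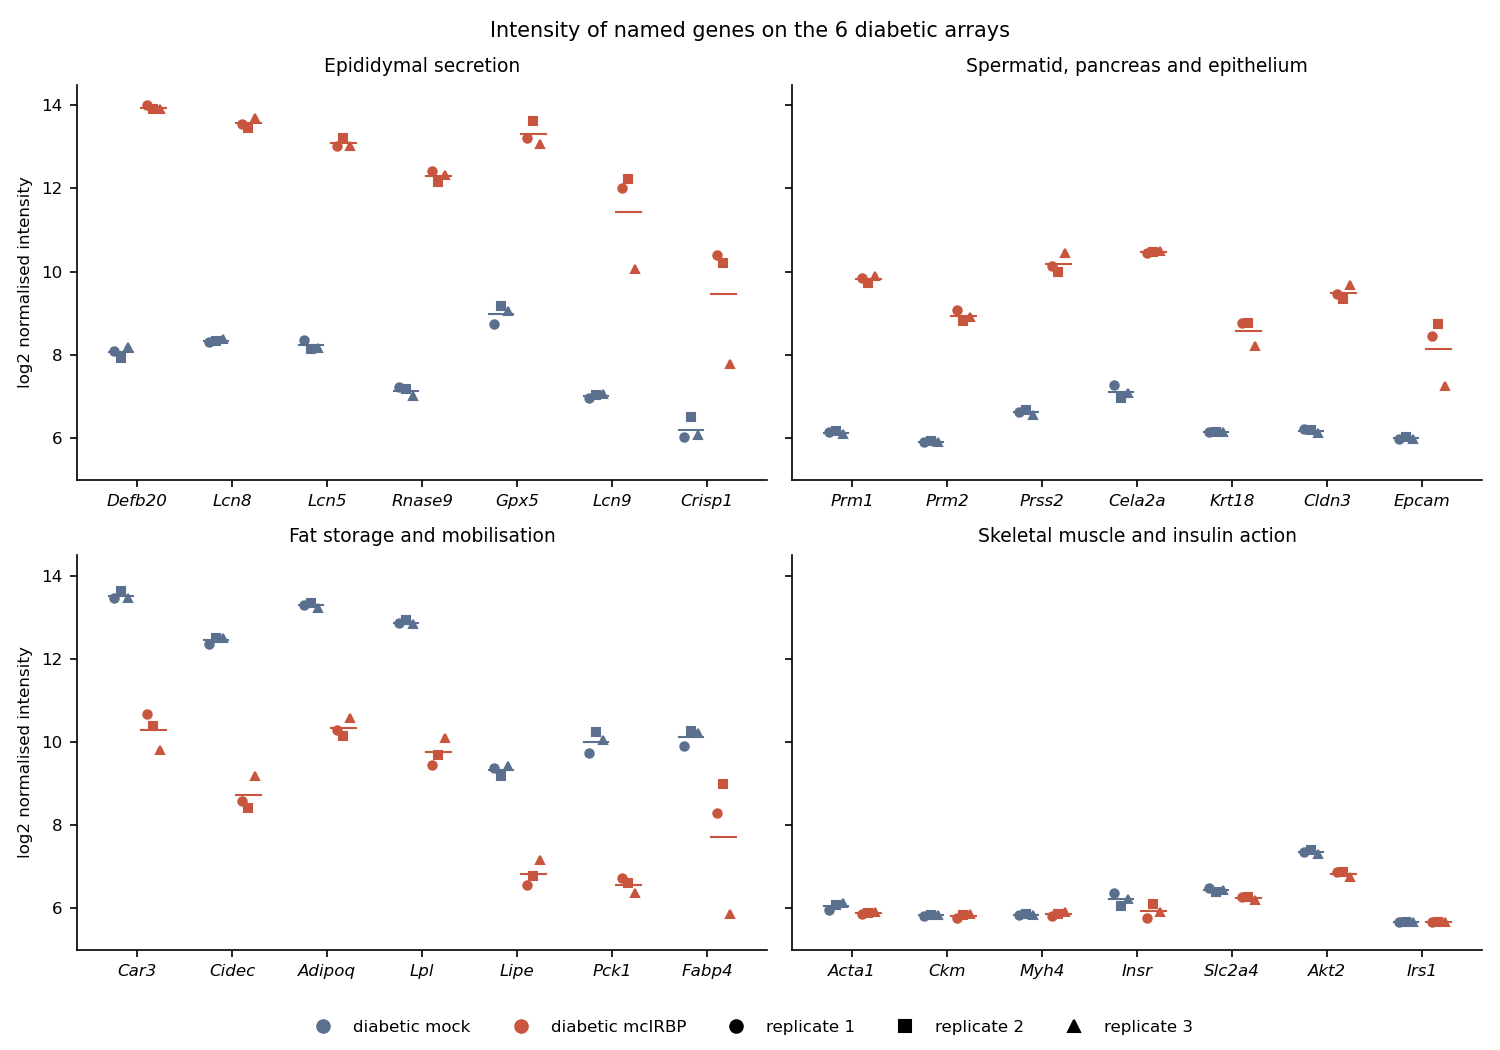
Log2 normalised intensity of 28 genes on the 6 diabetic arrays, mock in blue and mcIRBP in red, 1 symbol shape per replicate number and a bar at each group mean. Epididymal genes such as Defb20 (8.09 to 14.01 on the first arrays of the groups) are higher on every mcIRBP array, fat genes such as Adipoq are lower on every one, and muscle genes such as Ckm stay near 5.8 on all 6.

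Genes of epithelial structure were among the rises. Of 38 genes of epithelial junctions 19 rose and 0 fell, and of 12 keratins 7 rose and 0 fell. Prom1, a protein of apical membrane protrusions, rose from 6.42, 6.49 and 6.37 to 10.08, 10.04 and 10.21. Cldn3, a tight junction claudin, rose from 6.21, 6.21 and 6.12 to 9.46, 9.34 and 9.67, with Cldn7 at 2.89 and Cldn2 at 2.44 as log2 fold changes. No mock array reached the level of an mcIRBP array for any of these. Krt18, a keratin of simple epithelia, rose by 2.44 and Krt19 by 1.65. Epcam (listed as Tacstd1), an epithelial adhesion molecule, rose by 2.15, with mcIRBP array 3 at 7.26 against 8.46 and 8.73. Of 19 genes of aquaporins, ion channels and transporters 3 rose (15.8%) and 1 fell (5.26%), against 5.19% and 4.18% of all genes. Their median change was 0.04 (log2). Slc38a5, a glutamine transporter, rose from 7.53, 7.61 and 7.52 to 12.56, 12.59 and 12.50 (log2 fold change 4.99, SE 0.06, adjusted p = 1.49e-11).

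Of 25 genes of androgen response and duct patterning, 4 rose and 1 fell. Srd5a2, which makes dihydrotestosterone from testosterone, rose at least 2.34-fold from below the floor on all mock arrays, and Pax8, a transcription factor of excurrent duct epithelium, rose by 1.80. Hoxc8, a homeobox factor of body-axis patterning, had a log2 fold change of -1.23. Cdh16 and Pdzk1, which the kidney list held, rose by 2.68 and 3.10, and these were the only 2 of its 14 genes called (14.3%). Actg2, the gamma actin of smooth muscle in visceral walls, rose from 6.47, 6.51 and 6.60 to 10.80, 10.60 and 11.18. Acta2, the alpha actin of vascular smooth muscle, rose by 1.39 but was not called under median scaling. In all 3 of 15 smooth muscle genes rose and 1 fell, and the fall was lost when any single diabetic array was left out.

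Transcripts of late sperm formation and of the exocrine pancreas were also higher. Of 25 testis and sperm genes 11 rose and 0 fell. Prm1, the protamine that packs sperm DNA, was at 6.14, 6.16 and 6.10 on the mock arrays and at 9.85, 9.72 and 9.89 on the mcIRBP arrays (log2 fold change 3.69, SE 0.07, adjusted p = 3.12e-10). Prm2 rose at least 7.48-fold, and the transition protein genes Tnp1 and Tnp2 at least 2.33-fold and 2.63-fold. Ddx4, a germ cell RNA helicase, and Star and Insl3, which mark steroid-making Leydig cells, were below the floor on all 6 arrays. Of 12 genes of the seminal vesicle and prostate limma called 0, with 1 at an unadjusted p under 0.05, and 10 of them were below the floor on all 6. When the 6 diabetic arrays were fitted alone 1 of the 12 rose and 2 fell.

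Of 18 exocrine pancreas genes 16 rose and 1 fell, and each of these calls held in every alternative that tested it. The probe of Klk1 was not tested under the filter on dim probes. Prss2, a trypsinogen, was at 6.64, 6.68 and 6.56 on the mock arrays and at 10.13, 9.99 and 10.44 on the mcIRBP arrays (log2 fold change 3.56, SE 0.11, adjusted p = 2.46e-08). Ctrb1, a chymotrypsinogen, was at 11.23, 10.94 and 11.04 on the mcIRBP arrays against 7.94, 7.41 and 7.97 on the mock arrays. Pnlip, the pancreatic triglyceride lipase, and Cela2a (listed as Ela2a), an elastase, rose by 3.31 and 3.37. Amy1, the salivary and liver amylase gene, went the other way and fell at least 4.34-fold. The pancreas list held 0.0653% to 0.0715% of above-floor intensity on the mock arrays and 0.636% to 0.752% on the mcIRBP arrays, and the sperm list at most 0.00561% against at least 0.117%. Their part in the other results was not tested.

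Genes of white fat were lower on the mcIRBP arrays. Genes of the adipose lists held 6.16% to 6.88% of above-floor intensity on the mock arrays and 1.17% to 1.33% on the mcIRBP arrays. In RNA from whole tissue, fewer cells of a type and less RNA per cell cannot be told apart. The larger share of epididymal transcripts moved with these falls, and its part in them was not tested. Of 11 adipokine genes 6 fell and 0 rose, with 4 falls when any 1 diabetic array was left out. Adipoq, which encodes adiponectin, was at 13.29, 13.34 and 13.22 on the mock arrays and at 10.28, 10.13 and 10.58 on the mcIRBP arrays (log2 fold change -2.95, SE 0.24, adjusted p = 3.18e-05). It stayed above the floor on all 3 mcIRBP arrays. Rbp4, the retinol carrier, fell by 3.60 on the log2 scale. Lep, the leptin gene, was at 6.38, 6.46 and 6.40 against 5.89, 5.86 and 6.01 and was not called, with an adjusted p of 0.477.

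Lipid droplet proteins coat and shape the triglyceride store. Of 13 measured 7 fell and 0 rose, and the median change was -1.77 (log2). Cidec, which fuses droplets, was at 12.35, 12.50 and 12.50 on the mock arrays and at 8.59, 8.42 and 9.17 on the mcIRBP arrays, a 13.2-fold fall (SE 0.36 on the log2 scale, adjusted p = 0.000112). Plin4 (listed as S3-12), a perilipin of fat cells, had a log2 fold change of -3.31, and Fitm2 (listed as D930001I22Rik), which partitions triglyceride into droplets, one of -2.59. Plin1 (listed as Plin), the main perilipin of fat cells, fell at least 1.53-fold (adjusted p = 0.0238), but lost its call without any single diabetic array and under the replicate block. Plin2 (listed as Adfp), the perilipin that most tissues share, had 9.25, 9.19 and 8.73 against 7.41, 7.11 and 7.34 and did not pass (adjusted p = 0.0596).

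Car3, carbonic anhydrase III, an abundant enzyme of the fat cell cytosol, had the largest fall of any probe with a symbol. Its probe with the larger change was at 12.65, 12.85 and 13.02 on the mock arrays and at 8.71, 8.44 and 8.18 on the mcIRBP arrays (log2 fold change -4.40, SE 0.53, adjusted p = 0.000493). Its second probe fell by 3.23, so both moved in the same direction. All 4 probes of the mitochondrial Car5b fell, with log2 fold changes of -3.10, -2.89, -1.47 and -1.25. Car2 and Car12, carbonic anhydrases of acid-transporting epithelia among other tissues, rose by 1.27 and 0.70.

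Of 18 genes of lipases and the control of lipolysis 10 fell and 0 rose. Lpl, lipoprotein lipase, was at 12.85, 12.92 and 12.83 on the mock arrays and at 9.44, 9.70 and 10.11 on the mcIRBP arrays (log2 fold change -3.12, SE 0.17, adjusted p = 1.71e-06). Lipe, the hormone-sensitive lipase, fell by 2.50, and Angptl4, a secreted inhibitor of lipoprotein lipase, had a log2 fold change of -2.67. Pde3b, the phosphodiesterase through which insulin lowers cAMP, fell at least 2.27-fold, and Ffar2 and Hcar2 (listed as Gpr109a), receptors that restrain lipolysis, had log2 fold changes of -1.40 and -1.05 and were called. Genes that start lipolysis and genes that restrain it were thus both among those that fell.

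Fatty acid and triglyceride synthesis showed falls with a few exceptions. Of 17 genes of triglyceride and glycerol synthesis 8 fell and 2 rose, and of 24 genes of lipogenesis 8 fell and 3 rose. Pck1, which supplies glycerol phosphate in fat and glucose in liver, had a log2 fold change of -3.44, Gpd1, the glycerol phosphate dehydrogenase, -2.40, and Lpin1, a phosphatidate phosphatase, -2.06. Of the 2 rises in the triglyceride list 0 held in every alternative that tested them. Thrsp, a lipogenic nuclear protein, fell at least 11.3-fold. The stearoyl-CoA desaturase genes moved in opposite directions. Scd1 was at 12.87, 13.07 and 12.92 on the mock arrays and at 10.09, 9.86 and 10.78 on the mcIRBP arrays, whereas Scd2 was at 7.51, 7.57 and 7.59 against 10.24, 10.31 and 10.71. The log2 fold changes were -2.71 (SE 0.24, adjusted p = 6.24e-05) and 2.87 (SE 0.31, adjusted p = 0.000244). The call for Scd1 was lost under cyclic loess, and that for Scd2 held under all 17 alternatives. Fads2, the delta-6 desaturase, rose by 1.43. Fasn, fatty acid synthase, was at 10.69, 10.43 and 10.57 against 8.06, 7.99 and 7.72 and missed the threshold with an adjusted p of 0.0502. Fabp4, the fatty acid binding protein of fat cells, missed it too (adjusted p = 0.0572), with 8.29, 8.99 and 5.86 on the mcIRBP arrays, the lowest on array 3.

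Transcription factors that maintain the fat cell were lower. Pparg, the master regulator of fat cells, was at 7.80, 7.74 and 7.73 on the mock arrays and at 6.09, 5.99 and 5.86 on the mcIRBP arrays, at least 2.6-fold lower (adjusted p = 0.000169). Cebpa fell at least 2.65-fold and Nr1h3, the liver X receptor alpha, at least 1.76-fold. Of 23 factors 5 fell and 1 rose, with 3 or 4 falls when a diabetic array was left out. Egr2, an early factor of adipogenesis and of immune cells, was the one that rose, at least 3.34-fold. Cav1, the main caveolin of fat cell caveolae, fell by 2.58. The 30 probes with the largest fall include several genes with more than 1 probe, and 17 distinct promoters were matched to them. Of these 2 (11.8%) held AGGTCA, the hexamer that nuclear receptors such as PPARs read, on either strand, against 13.8% of all promoters.

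**Figure D3:**
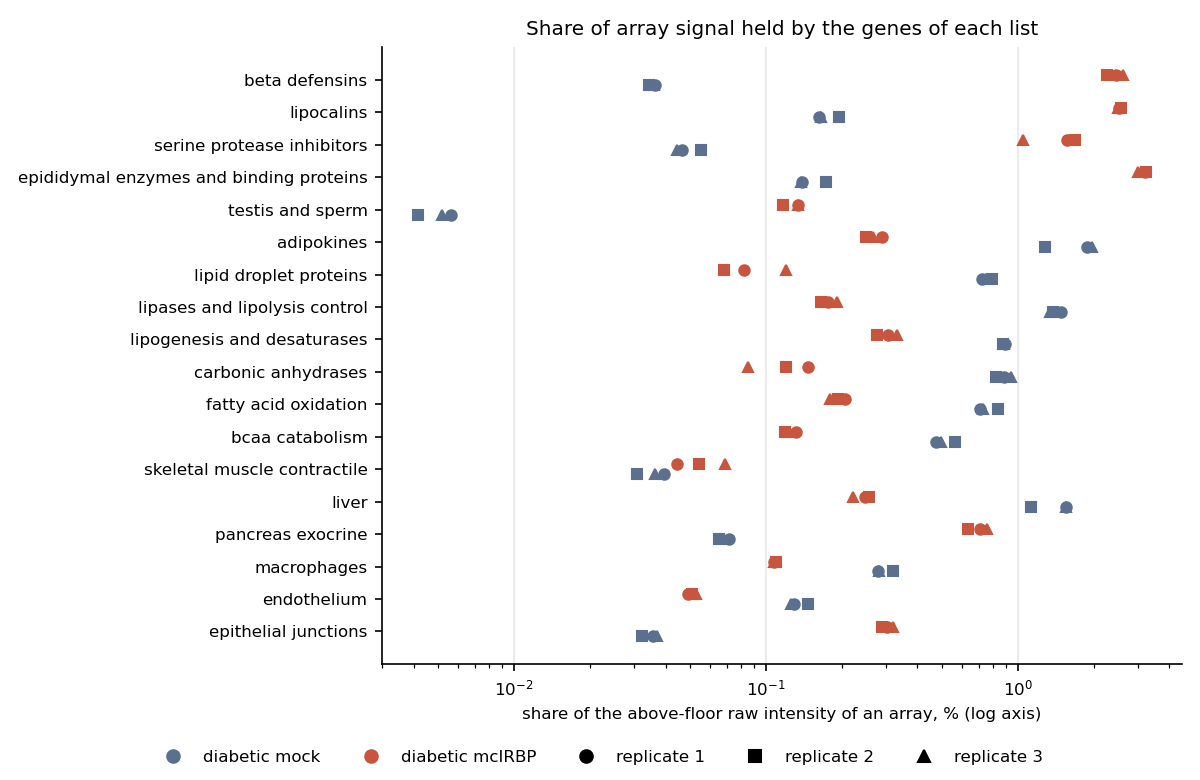
Share of the above-floor raw intensity of each diabetic array held by the genes of 18 lists, in % on a log axis, mock in blue and mcIRBP in red with 1 symbol shape per replicate. Beta-defensins move from 0.0344% to 0.0362% up to 2.27% to 2.62%, adipokines move the other way, and the 3 arrays of a group lie close together in both.

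Genes of mitochondrial fuel use were lower as well. Of 26 genes of fatty acid oxidation 12 fell and 0 rose, of 28 genes of the citrate cycle and pyruvate dehydrogenase 11 fell and 0 rose, and of 20 genes of branched-chain amino acid breakdown 12 fell and 0 rose. The counts moved with single arrays, to between 6 and 9 for fatty acid oxidation, between 7 and 8 for the citrate cycle and between 8 and 10 for branched-chain breakdown. The lowest for fatty acid oxidation came without mock array 2. Acadm, the medium-chain acyl-CoA dehydrogenase, was at 10.19, 10.19 and 10.08 on the mock arrays and at 7.32, 7.16 and 6.42 on the mcIRBP arrays (log2 fold change -3.18, SE 0.31, adjusted p = 0.000114). Acadl, the long-chain enzyme, had a log2 fold change of -2.25. Bckdhb, a subunit of the branched-chain ketoacid dehydrogenase, was at 9.71, 10.07 and 9.76 against 7.86, 7.74 and 7.85, a log2 fold change of -2.03. Cs, citrate synthase, fell by 1.66, and Pdk4, which switches off pyruvate dehydrogenase, fell at least 5.12-fold.

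For the respiratory chain 3 of 64 genes were called, all lower (4.69%), and the median change was -0.51 (log2). The share that fell was 4.18% of all genes and 7.10% of genes above the floor on any of the 6 arrays. The number of falls ranged from 1 to 32 over the alternatives, with 1 without mock array 1 or 3 and 25 when the 6 diabetic arrays were normalised and fitted alone. Glycolysis gave 1 fall among 21 genes (4.76%), which was lost without mock array 2, and 0 rises. Ppargc1a, the coactivator of mitochondrial biogenesis, was below the floor on all 6 arrays.

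The signalling pathway behind the insulin receptor, which mcIRBP binds, was measured through 50 genes. Of these 5 rose (10%) and 2 fell (4%), against 5.19% and 4.18% of all genes, and the median change was -0.01 (log2). Among genes above the floor on any of the 6 arrays the shares were 8.61% and 7.10%. Insr, the receptor, was at 6.37, 6.05 and 6.22 on the mock arrays and at 5.78, 6.12 and 5.91 on the mcIRBP arrays. These values overlapped, but Insr was above the floor on every mock array and below it on every mcIRBP array. Its log2 fold change of -0.28 (SE 0.11) is therefore not measured on both sides, and it was not called (adjusted p = 0.206). Akt2, the kinase that drives glucose uptake in fat and muscle, was at 7.36, 7.41 and 7.31 against 6.88, 6.88 and 6.75, an adjusted p of 0.36, and Irs1 was below the floor on all 6 arrays. Slc2a4, the insulin-responsive glucose transporter GLUT4, was at 6.49, 6.40 and 6.44 against 6.28, 6.26 and 6.19, and its adjusted p was 0.93. Pik3r1, the regulatory subunit of phosphatidylinositol 3-kinase, had a log2 fold change of -0.65 with an adjusted p of 0.0942. Hk2, hexokinase 2 of glycolysis, overlapped between groups at 8.16, 8.21 and 8.01 against 8.13, 8.07 and 8.43.

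Among the called members of that list, 2 of the 5 rises and 2 of the 2 falls held in every alternative that tested them. Some of them are given here. Enpp1, an ectoenzyme that can inhibit the receptor, rose at least 2.69-fold, and Foxo3, a factor that Akt restrains, rose by 1.20. Eif4ebp1, the translation repressor that mTOR phosphorylates, fell from 10.25, 9.89 and 9.85 to 7.64, 7.57 and 7.83 (log2 fold change -2.32, SE 0.38, adjusted p = 0.00359). Grb10, an adaptor that dampens the receptor, had a log2 fold change of -0.92. When the 6 diabetic arrays were fitted alone 8 of the 50 rose and 9 fell, and under median scaling 3 rose and 11 fell. Of the 21 FoxO targets and atrophy genes 4 fell and 0 rose, among them Ddit4, an mTOR inhibitor, with a log2 fold change of -1.28 and Igfbp4, which binds insulin-like growth factors, with -1.58. Txnip, a brake on glucose uptake that glucose induces, was at 11.30, 11.02 and 11.08 against 8.75, 8.65 and 7.06, and was not called (adjusted p = 0.0675).

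Genes of stroma, vessels and macrophages were also among the falls. Of 26 macrophage genes 12 fell and 0 rose, and of 29 endothelial genes 11 fell and 0 rose. Both counts rested on all arrays, with 5 to 7 falls in each list when any 1 diabetic array was left out. Mrc1, the mannose receptor of tissue macrophages, was at 8.36, 8.33 and 8.44 on the mock arrays and at 6.75, 6.66 and 6.56 on the mcIRBP arrays, a log2 fold change of -1.72, and Cd14, the lipopolysaccharide co-receptor, had -1.66. Adgre1 (listed as Emr1), a macrophage surface antigen, was not called (6.81, 6.92 and 6.80 against 6.32, 6.30 and 6.31, adjusted p = 0.207). Cdh5, the cadherin of endothelial junctions, fell by 1.31. Of 42 matrix and fibroblast genes 10 fell (23.8%) and 2 rose (4.76%), against 4.18% and 5.19% of all genes. The falls included Dpt, dermatopontin, with a log2 fold change of -1.67 and Nid1, nidogen, with -1.57. By limma 0 of 18 lymphocyte genes and 0 of 17 brain and nerve genes were called, with 1 at an unadjusted p under 0.05 in each list. Under median scaling 2 lymphocyte genes and 3 brain and nerve genes fell. Orm1 and Orm2, acute phase proteins that fat and liver make, fell at least 5.17-fold and 3.31-fold. Ltf, lactoferrin, which secretory epithelia and neutrophils make, was the granulocyte-list gene that rose, by 1.37.

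Genes of protein folding in the secretory pathway and of glutathione metabolism were mixed. Of 29 genes of the unfolded protein response 8 rose and 2 fell, and 2 rose under median scaling. Sdf2l1, a partner of the chaperone BiP, rose from 6.64, 6.44 and 6.60 to 7.95, 7.90 and 8.32. Creld2 rose by 2.08 but not under median scaling, and 2 of the 8 rises held in every alternative that tested them. Hspa5, which encodes BiP itself, overlapped between the groups and was not called (log2 fold change 0.86, adjusted p = 0.502). Asns, the asparagine synthetase that amino acid shortage induces, had a log2 fold change of -2.03 but was not called without mock array 2. Of 41 antioxidant and glutathione genes 11 fell and 5 rose. Mgst3 and Gstz1, glutathione transferases, had log2 fold changes of -2.67 and -2.66, while Gstt3, another, rose from 6.43, 6.57 and 6.49 to 9.06, 9.17 and 9.44. The number of rises in that list was 2 to 4 when a diabetic array was left out. Fdps, farnesyl diphosphate synthase of the sterol pathway, rose by 2.03.

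**Figure D4:**
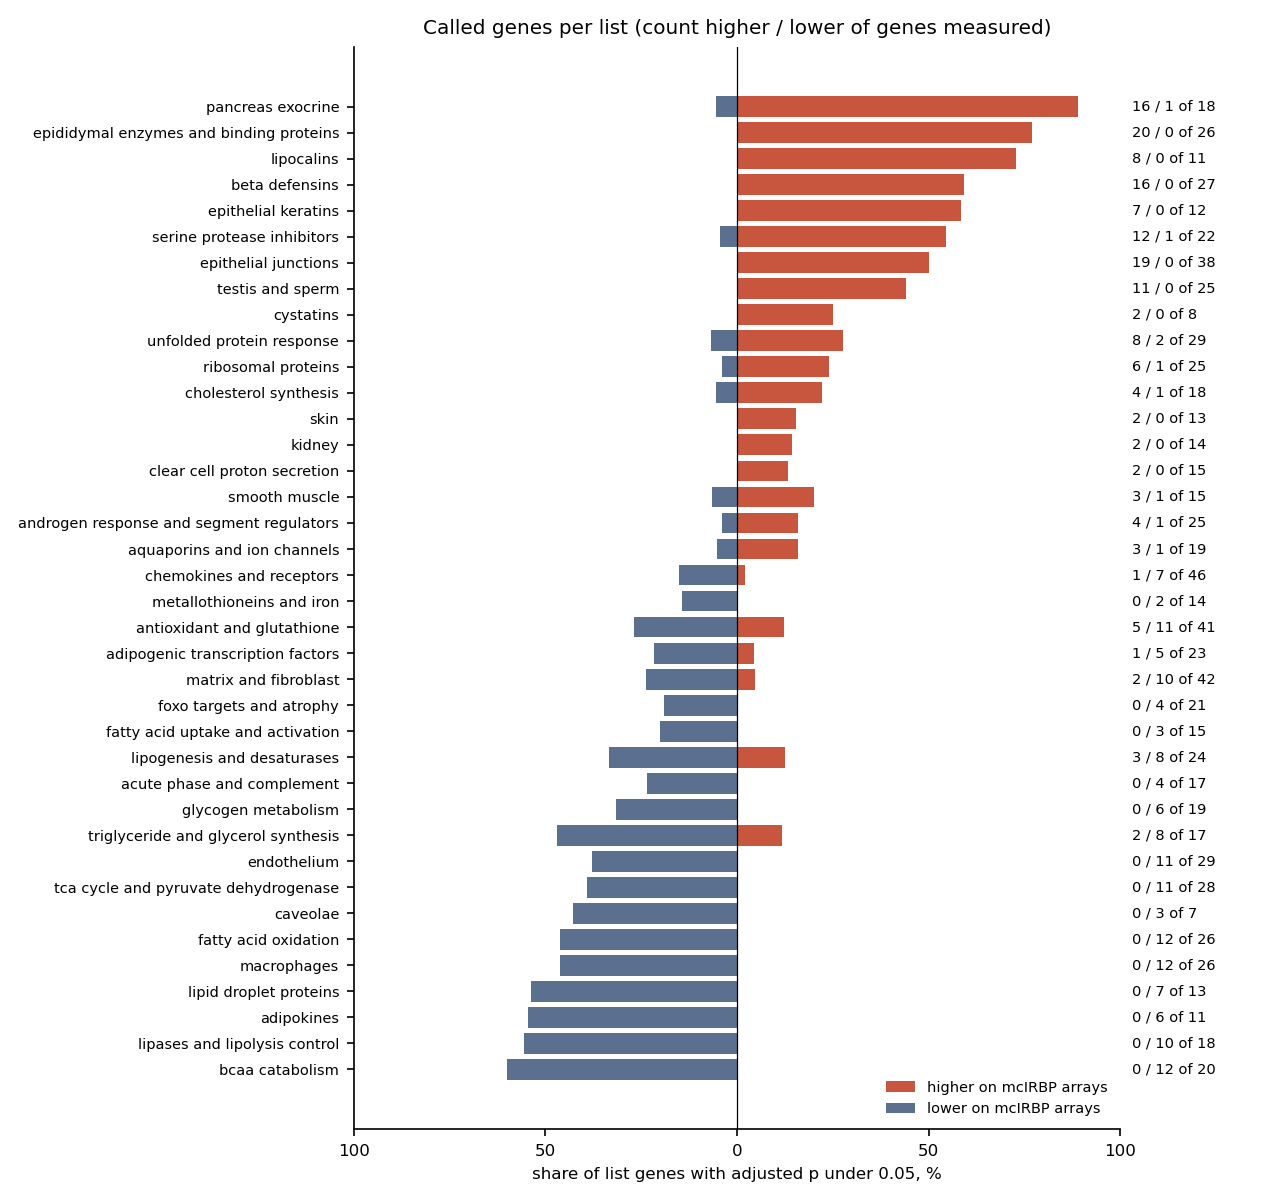
Share of a list's genes that were called higher (red, right) or lower (blue, left) on the mcIRBP arrays of diabetic mice, in %, with the counts higher and lower of the genes measured at the right. Lists without a call are left out. The others were ordered by % higher minus % lower, and only the first 18 and the last 20 are drawn. Exocrine pancreas and epididymis lists are at the top (16 of 18 pancreas genes higher) and branched-chain breakdown at the bottom (12 of 20 lower), against 5.19% of all genes higher and 4.18% lower.

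The same contrast in the normal mice gave a different set of changes, and the difference of effects was tested in the same model. It was called for 2760 probes (9.22%) and 12.6% of genes, and in the normal mice 1898 probes (6.34%) and 8.11% of genes were called. The normal count depended strongly on the scaling, with 292 probes under median scaling and 516 under cyclic loess. The comparisons share no arrays, but the fit shares 1 estimate of the spread. All 16 beta-defensins that rose in diabetic mice were in the 16 members for which the difference was called, while in normal mice the list's median change was -0.04 (log2). Defb20, Defb12 and Spag11 were above the floor on 0 mock and 0 mcIRBP arrays of the normal mice. For genes undetected there the difference restates the diabetic rise and is no separate evidence. Adipoq had log2 fold changes of -2.95 in diabetic mice and 1.27 in normal mice, and Cav1 of -2.58 and 1.93, all of them called. The differences were -4.23 (SE 0.34, adjusted p = 2.04e-05) for Adipoq and -4.51 (SE 0.25, adjusted p = 1.06e-06) for Cav1. In the labels disease state and sex coincide, so a difference between disease states and one between sexes cannot be told apart.

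**Figure D5:**
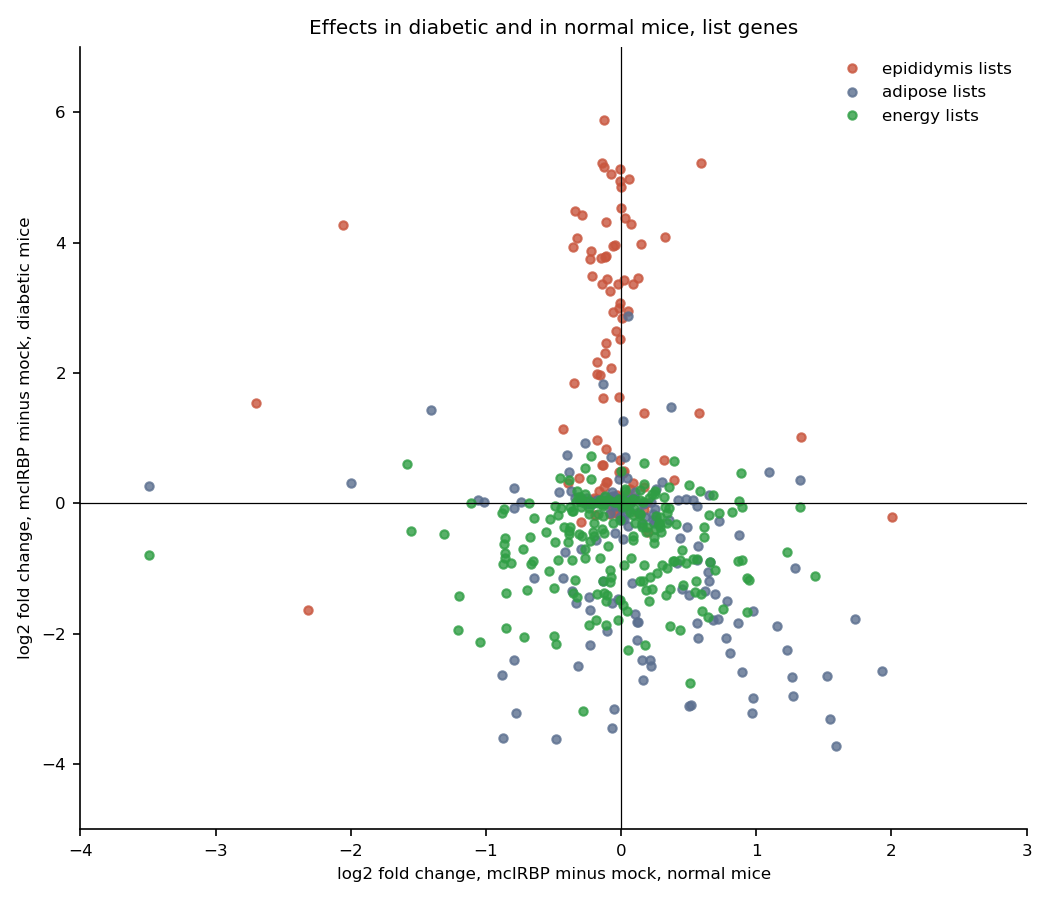
Log2 fold change of mcIRBP minus mock in diabetic mice (vertical axis) against the same in normal mice (horizontal axis), 1 point per gene of the epididymis, adipose and energy lists. Epididymis genes form a vertical band near 0 on the horizontal axis and up to 5.88 on the vertical, and several fat genes such as Cidec lie at the lower right, with -3.72 and 1.59.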

How the data were processed

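RNA labelled with Cy5 was hybridised to 1-colour arrays of 29922 probes. Each array file that the authors deposited holds a raw intensity and a normalized intensity on a linear scale, and the submitters' processing notes name limma. How the scanner background was handled before deposit is not stated in the labels or headers. For all 12 arrays together, the raw values underwent normexp correction (offset 50) and were then quantile normalised, taken to log2 and fitted with 1 mean per group in limma 3.58.1 (R 4.3.3, statmod 1.5.0), which left 8 residual degrees of freedom. Benjamini-Hochberg adjustment ran over all probes at 0.05. In data simulated for the diabetic comparison, 12%, 56%, 88% and 100% of probes changed by 0.5, 1, 2 and 3 (log2) were recovered, and 5 of 133 calls were false. The simulation gave a probe the same spread on every array and was not normalised again. It changed only probes above the floor on all 3 diabetic mock arrays. Those rates therefore do not cover dim probes or arrays of unequal spread.

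Of the distinct symbols, 16633 of 16675 were found in RefSeq (GRCm38.p6), which also gave promoters, and 8902 probes had no symbol. Named genes were the 30 largest rises and falls among called probes whose groups did not overlap, members of 65 gene lists (1419 members measured, 131 not), 8 genes of insulin action, the 5 largest positive and negative differences of effects, and cell type markers. The comparison and the lists were chosen with earlier results of these data known. Alternatives changed the background correction, scaling, filter, weights, variance model, replicate block and the arrays fitted. The number of arrays limits the precision.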

Additional observations from a re-analysis of the deposited data

Results flagged for a closer look

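The effect of mcIRBP differed between diabetic and normal mice, by limma's test of the difference itself, for the 10 genes with the largest positive and negative differences. Clu, which encodes the secreted chaperone clusterin, rose in diabetic mice (log2 fold change 4.27) and had -2.06 in normal mice, where it was not called (adjusted p = 0.0629), a difference of 6.33 (SE 0.80, adjusted p = 0.00061). Cidec had a difference of -5.31, Car3 and S3-12 each of -4.86, Cav1 of -4.51 and Adipoq of -4.23, all with a fall in diabetic mice. In normal mice Cidec, Cav1 and Adipoq rose, by 1.59, 1.93 and 1.27, and Car3 and S3-12 were not called. Ttr (6.94), Apoa2 (6.61), Ahsg (6.07) and Apoa1 (6.06), genes of liver plasma proteins, had positive differences that came from the normal arm, since in diabetic mice their log2 fold changes were 0.02, -0.02, 0.40 and -0.02. Ttr and Apoa2 were below the floor on every diabetic array, and Apoa1 on every diabetic mcIRBP array, so these are not measured folds. For Ttr and Apoa2 the difference restates the fall in normal mice and is no separate evidence. No cause was tested, and disease state and sex cannot be told apart.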

How the results depend on the processing

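Of 393 calls for named genes in the diabetic comparison, 254 held in every alternative that tested them (17, or 16 where the filter on dim probes removed the probe), as did 58 of the 60 largest changes. The main count of 2009 calls became 4050 under median scaling (3267 lower), 3158 under cyclic loess (1788 higher, 1370 lower), 3226 under 75th percentile scaling (1713 lower), 6957 with array weights (3248 higher, 3709 lower), 4252 for the 6 diabetic arrays alone (1736 higher, 2516 lower) and 4382 from the deposited normalized intensity (1788 higher, 2594 lower). Without 1 diabetic array it ranged from 1276 to 1636, with 750 to 1032 higher and 526 to 634 lower, and without 1 normal array from 2003 to 2586. The 2760 differences of effects became 6297 under median scaling and 20329 under 75th percentile scaling, which shifted the median of all probes by 0.37 (log2). The 1898 calls in normal mice became 292 under median scaling, 516 under cyclic loess, 622 with array weights and 1083 under 75th percentile scaling. Without normal mock array 1 they became 2870. Calls of single genes in normal mice were not followed over the alternatives. Signs turned under median scaling for Atp6v1a (-0.28), Myh11 (-0.012), Dnajb9 (-0.11), Eif2ak3 (-0.0040), Rpl22 (-0.21), Rpl31 (-0.032) and Rpl27a (-0.31), under cyclic loess for Alb (0.084) and Mt2 (0.76), and under 75th percentile scaling for Il10 (0.084). The cause was not tested. The replicate block gave 1643 calls, of which 1476 were shared with the fit without it, and same-numbered arrays of the diabetic groups did not deviate together (r of -0.376, 0.0361 and 0.291). Of the 10 largest differences of effects, all kept their call in 210 of 210 refits. Low signal limits genes near the floor, among the diabetic arrays most on mcIRBP array 3, with 4302 probes above it. The normal mock arrays had fewer, at 3824, 2551 and 2657, which limits the differences of effects.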
